A study of Drosophila melanogaster with 8 samples.

Results

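The RNA of wild-type ovaries of the fruit fly Drosophila melanogaster was described from 2 total RNA libraries, out of 8 libraries in the series and 4 of total RNA. Both came from dissected ovaries of Oregon-R, a common laboratory wild-type strain, kept at 25 °C and not treated further. They were chosen by their labels, not by their values, and are called wild type 1 and wild type 2. The 6 other libraries, from egt mutant ovaries or of small RNA, were not used. Whether both libraries trace back to different flies is not stated in the labels, nor is an age. The spread between the libraries may thus be technical. With 2 libraries of a single group no p-value was computed, and each level is given in wild type 1 and then wild type 2.

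The fly ovary is made of strings of egg chambers, each holding germline nurse cells and an oocyte inside a layer of somatic follicle cells. Nurse cells make the RNA that is loaded into the egg, among them the messages that set the body axes and the germ plasm. Follicle cells secrete yolk proteins and then the eggshell, first the inner vitelline membrane and later the outer chorion. Both lineages carry transposons and silence them with piRNAs, small RNAs bound by Piwi proteins. A sheath of muscle surrounds the ovary. In a whole-tissue sample, fewer cells of a type and less RNA per cell cannot be told apart.

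Levels are FPKM, fragments scaled to transcript length and to library size, so that values can be compared between genes of different length. Values of all transcripts were added up per gene, for 16452 named genes, and 117 transposons of the studied species had a value. The files give no read totals. From the steps between low values of short genes, wild type 1 was estimated at 6.3 M reads and wild type 2 at 16.55 M, although only 46.2% and 49.2% of those values came out within 0.02 of a whole read. That step took the genomic span of a gene, introns included, as its length. At those depths, 3 reads in a transcript of 1 kb equal 0.476 and 0.181 FPKM. This limit covers counting error only.

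The libraries ordered genes alike, but not equally for short and long genes. Across 7438 genes at 1 FPKM or more in both libraries, log2(FPKM + 1) correlated at a Pearson r of 0.886 and a Spearman rho of 0.845, a description across genes, which are not independent replicates. Of 8034 genes at 1 FPKM or more in either library, 1015 (12.6%) were at least 2-fold higher in wild type 1 and 798 (9.93%) at least 2-fold higher in wild type 2, on the FPKM + 1 scale. With both libraries scaled to the same FPKM sum these counts became 423 and 1634, and centred on the median gene they became 723 and 1034. The difference followed gene length. Length here is the genomic span from start to end, introns included, not the transcript length used in FPKM. Its median log2 value, wild type 2 minus wild type 1, was -1.30 in genes up to 600 bp, -0.12 in genes of 2001 to 4000 bp and 0.92 in genes over 20000 bp, and the Spearman rho with gene length was 0.70 across the 7438 genes. Short genes thus ranked higher in wild type 1 and long ones in wild type 2, and what produced this was not tested. It bears on every level below where a short gene is set beside a long one.

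**Figure D1:**
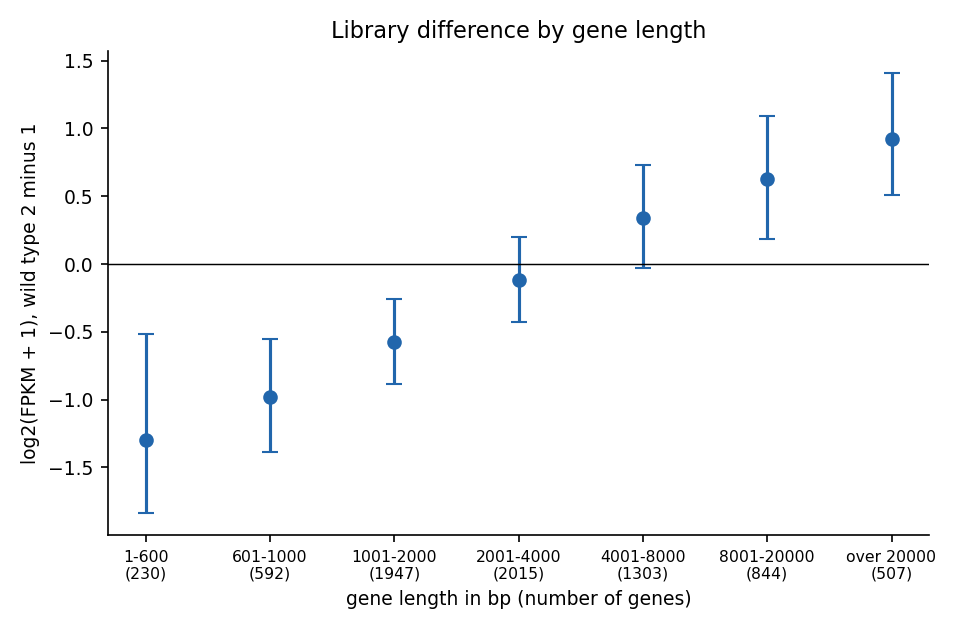
Difference between the wild-type libraries, as log2(FPKM + 1) in wild type 2 minus wild type 1, by gene length in bp. Length is the genomic span with introns, and genes are those at 1 FPKM or more in both. Points are medians, bars the range from the lower to the upper quartile, and numbers in brackets the genes in each class; the median runs from -1.30 in genes up to 600 bp to 0.92 in genes over 20000 bp.

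Fewer than 1 gene in 2 was detected in the ovary. At 1 FPKM or more in both libraries stood 7438 of 16452 genes, or 45.2%, and 5358 genes were listed at 0 in both. Among protein-coding genes 7184 of 13786 reached that level, or 52.1%, against 70 of 1628 long noncoding RNAs. At 10 FPKM or more in both were 5605 genes, at 100 or more 659, and at 1000 or more 81. All 96 ribosomal RNA genes were listed at 0 in both libraries, although every cell uses them, so a value of 0 in these files does not by itself show that a gene was not expressed. The 10 highest genes of each library held 10.8% of the summed FPKM in wild type 1 and 7.82% in wild type 2, and the 30 highest held 22.4% and 15.2%. The lists of the 30 highest genes shared 19 members, or 63.3% of each.

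The most abundant protein-coding messages belonged mainly to protein synthesis and the eggshell, with the gene of a germline redox protein among them. Of the 30 protein-coding genes with the highest mean, 18 encoded cytoplasmic ribosomal proteins, 5 chorion proteins and 2 vitelline membrane proteins. The 5 others were eEF1alpha1, dhd, Hsc70-4, Tctp and awd. Cp15, a chorion protein gene (3L, 8728481 to 8729066), had the highest mean, at 10998 and 5867 FPKM, and ranked 2 in both libraries. eEF1alpha1 (2R, 11891135 to 11895762), which encodes the elongation factor that brings aminoacyl-tRNA to the ribosome, stood at 6163 and 6995 FPKM. It ranked 7 in wild type 1 and 1 in wild type 2. Of the 30 genes, 26 were higher in wild type 1, and 15 were at least 2-fold higher there. The share over all genes, 12.6%, is not a like comparison. Picking by the mean lets a gene enter through a high level in wild type 1 alone. The FPKM of all genes also summed to 718754 in wild type 1 and 527370 in wild type 2.

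dhd, which encodes the germline thioredoxin Deadhead, a redox enzyme needed at fertilisation, was the highest member of the germline lists. It lies on X from 5312171 to 5313125 and stood at 5067 and 4357 FPKM, rank 12 and rank 3. Its neighbour TrxT, the testis thioredoxin gene (X, 5310581 to 5311888), was at 0.286 and 0.436 FPKM. The general thioredoxin gene Trx2 was at 238 and 175 FPKM. TrxT and Trx2 were picked after their values were seen. The dhd level was thus far above either thioredoxin relative in both libraries.

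Hsc70-4, a constitutive chaperone gene, was at 3322 and 2558 FPKM. Tctp, which encodes a growth-related translation-associated protein, was at 4070 and 1648 FPKM, and awd, a nucleoside diphosphate kinase gene, at 3998 and 1699 FPKM. These last values were both over 2-fold higher in wild type 1.

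**Figure D2:**
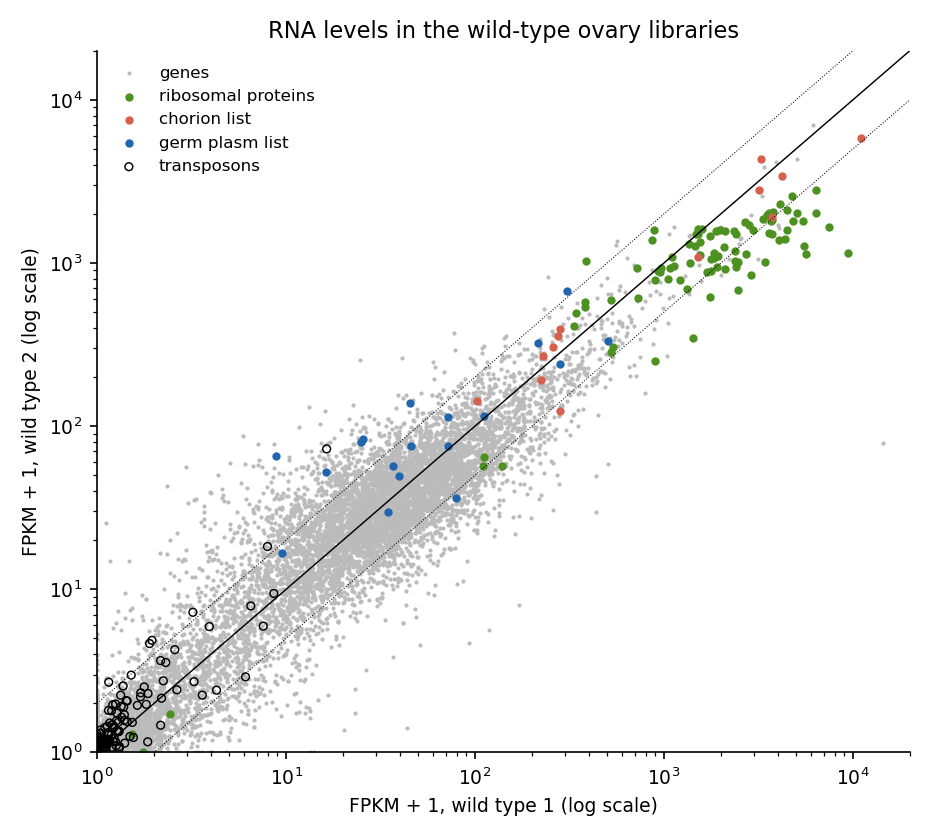
FPKM + 1 of every gene in wild type 1 (x axis, log scale) and wild type 2 (y axis, log scale), with equal levels on the solid line and 2-fold differences on the dotted lines. Ribosomal protein genes lie mostly below the solid line, Cp15 is the chorion point farthest right at 10998 FPKM in wild type 1, and transposons lie near the origin.

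Chorion genes, which late follicle cells amplify and transcribe to build the outer eggshell, were among the highest in the ovary. Of the 14 genes on the list, 13 were at 100 FPKM or more in both libraries, against 659 of all 16452 genes. The list median was 280 and 376 FPKM, at percentiles 97.2 and 98.4 of the 11094 genes above 0 in either library. The list held 3.97% of the summed FPKM in wild type 1 and 4.02% in wild type 2. The remaining member, Pxd, a peroxidase gene, was at 0.0709 and 0.0775 FPKM.

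The major chorion proteins come from clusters on 3L and X. On 3L the 4 genes Cp18, Cp15, Cp19 and Cp16 lie within 5809 bp (8726791 to 8732599). Cp18 was at 3751 and 1917 FPKM. Cp19 was at 3185 and 2783 FPKM. Cp16 was the lowest of the cluster in both libraries, at 1506 and 1092 FPKM, which puts Cp15 at 7.30 and 5.37 times its level. On X the 5 genes Cp7Fa, Cp7Fb, Cp7Fc, Cp36 and Cp38 lie within 12424 bp (8470888 to 8483311). Cp36 was at 4201 and 3416 FPKM and Cp38 at 3270 and 4354 FPKM, so their order turned between the libraries. The minor genes of that cluster were lower, with Cp7Fc at 256 and 305 FPKM, Cp7Fb at 228 and 268 FPKM, and Cp7Fa at 223 and 191 FPKM. Within the X cluster the highest gene exceeded the lowest 18.9-fold in wild type 1 and 22.7-fold in wild type 2. The spread inside each cluster was larger than the difference of any of its genes between the libraries.

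Outside the clusters, yellow-g2 and yellow-g, members of the yellow family that act in eggshell hardening, were at 281 and 394 FPKM and at 274 and 358 FPKM. Femcoat, a chorion gene on X, was at 279 and 122 FPKM, the only member of the list at least 2-fold apart. CG4009, a peroxidase-like gene, was at 102 and 141 FPKM.

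Vitelline membrane genes were also high. All 14 listed genes of the vitelline membrane and inner eggshell layers were at 1 FPKM or more in both libraries, and 8 were at 100 or more. Of all 16452 genes, 7438 and 659 were so. The list median was 155 and 124 FPKM. Vm26Aa (2L, 5959596 to 5960340), a structural protein gene, was at 3939 and 4167 FPKM, and Vm34Ca (2L, 13411141 to 13411631) at 3387 and 3902 FPKM. These 2 genes kept their order in both libraries. Vm26Ab was at 1123 and 1668 FPKM and Vm32E at 1565 and 774 FPKM, so the next pair in rank changed places.

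Vm26Aa, Vm26Ab and Vm26Ac lie within 3337 bp on 2L (5957004 to 5960340), and the highest exceeded the lowest 14.2-fold and 36.4-fold. The lowest was Vm26Ac, at 277 and 115 FPKM. Among larger eggshell proteins, dec, which encodes the processed protein defective chorion 1, was at 347 and 566 FPKM. Vml, a vitelline membrane-like gene, was at 170 and 321 FPKM. The genes clos, fs(1)M3 and fs(1)N, whose products are needed for an intact vitelline membrane, were each lower in wild type 1, with fs(1)M3 at 45.0 and 80.3 FPKM and fs(1)N at 40.6 and 79.7 FPKM. These genes are longer than 4000 bp, the length above which the median gene was also higher in wild type 2.

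The members that carry patterning cues were the lowest of the eggshell list. ndl, which encodes the protease nudel that starts dorsoventral signalling, was at 8.67 and 23.1 FPKM. tsl, the terminal cue made by a few follicle cells at the egg ends, was at 1.77 and 1.57 FPKM.

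All 4 genes of the yolk list ranked high. Yp2, a yolk protein gene, was at 2611 and 1744 FPKM and Yp1 at 1363 and 1025 FPKM. Yp3 was at 579 and 426 FPKM, so the yolk protein genes kept the order Yp2, Yp1, Yp3 in both libraries. Yp2 stood at 4.51 and 4.09 times the level of Yp3. The oocyte's yolk receptor gene yl was at 465 and 728 FPKM, below Yp3 in wild type 1 and above it in wild type 2. Fly yolk proteins are also made in fat body, whose other markers are given below.

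**Figure D3:**
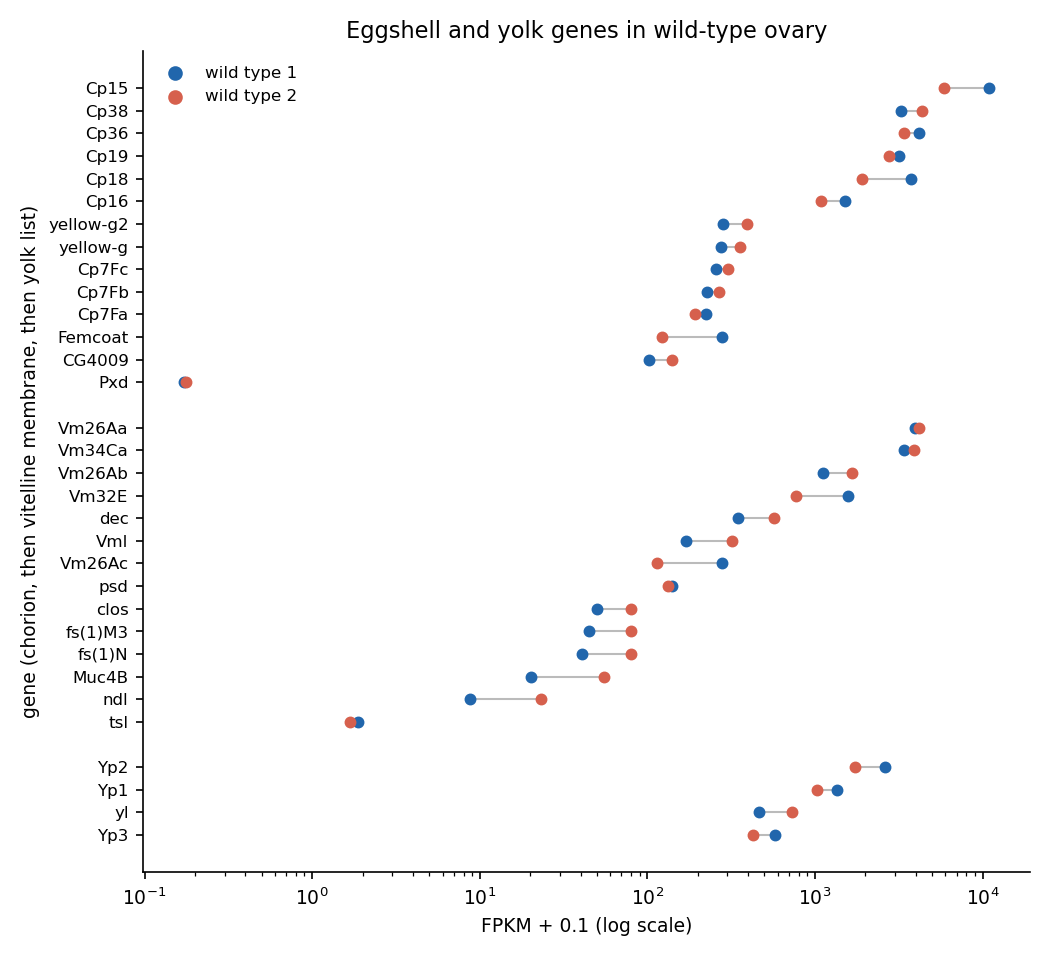
FPKM + 0.1 (log scale) of each gene of the chorion, vitelline membrane and yolk lists, with wild type 1 in blue and wild type 2 in red and a grey line joining them. Cp15 leads at 10998 and 5867 FPKM, and Pxd and tsl lie far below the rest.

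Ribosomal protein genes took a larger part of the top ranks in wild type 1 than in wild type 2. They were 7 of the 10 highest genes in wild type 1 and 2 of the 10 highest in wild type 2, and the lists of 10 shared 3 genes. In wild type 2, ranks 2 to 7 went to Cp15, dhd, Cp38, Vm26Aa, Vm34Ca and Cp36. Of 93 cytoplasmic ribosomal protein genes, 86 were at 1 FPKM or more in both libraries and 83 at 100 or more. Of all 16452 genes, 7438 and 659 were so. The list held 28.6% of the summed FPKM in wild type 1 and 19.8% in wild type 2, with a median of 1772 and 1104 FPKM. Of the 87 at 1 FPKM or more in either library, 31 were at least 2-fold higher in wild type 1 and 1 in wild type 2. Over all genes 12.6% and 9.93% were so. The median length of the listed genes was 1318 bp, and all genes in the class over 1000 and up to 2000 bp had a median log2 difference of -0.57, with 18.1% at least 2-fold higher in wild type 1. The list's own median difference was -0.78, and the part of length in it was not tested. RpL36, a large subunit protein gene on X, was at 9418 and 1154 FPKM, and RpL41, one of the shortest, at 7493 and 1662 FPKM. RpLP2, an acidic stalk protein gene, was at 6363 and 2812 FPKM. RpS3A on chromosome 4 was at 4785 and 2576 FPKM.

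Ribosomal paralogs differed widely from each other. RpS5b, known as the germline paralog in the ovary, was at 2476 and 1018 FPKM, against 522 and 282 FPKM for RpS5a. That is 4.74 times and 3.61 times as much. RpS19a was at 1460 and 1272 FPKM, while RpS19b was at 1.44 and 0.728 FPKM. RpS10b was at 867 and 1390 FPKM, while RpS10a was at 0.524 and 0.299 FPKM. Under 1 FPKM in both libraries were 6 paralogs, among them RpL22-like, at 0 and 0.0489 FPKM. RpL10Aa, RpS28a and RpS28-like were listed at 0. How reads shared by near-identical copies were counted is not given in the sources used here, so levels of paralogs such as RpS14a and RpS14b are uncertain.

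The proteasome showed the same division. The 32 subunit genes without a paralog suffix ranged from 82.9 to 663 FPKM in wild type 1 and from 71.8 to 224 FPKM in wild type 2. Of 16 genes named with the suffix R or T, which include the testis subunits, 12 were listed at 0 in both libraries. Of all genes 32.6% were so. Of the 16, 14 were under 1 FPKM in both. The exceptions were Rpt3R, at 4.44 and 1.14 FPKM, and Prosalpha1R, at 83.1 and 71.4 FPKM. Prosalpha1 was at 82.9 and 71.8 FPKM, so the latter pair cannot be told apart by level.

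Common reference genes spanned a wide range. RpL32, often used for normalisation, was at 5661 and 1131 FPKM, at least 2-fold apart between the libraries. Gapdh2 and Gapdh1, glycolytic enzyme genes, were at 2543 and 1429 FPKM and at 721 and 585 FPKM. SdhA, of the citric acid cycle, was at 112 and 82.9 FPKM, and Tbp, the TATA-binding protein gene, at 72.9 and 66.3 FPKM. Of the 12 housekeeping genes 11 were higher in wild type 1, and 2 were at least 2-fold higher there, a share near the 12.6% of all genes.

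Among cytoskeletal families a few members carried nearly all of the signal. Act5C, a cytoplasmic actin gene, was at 1381 and 1493 FPKM and Act42A at 260 and 230 FPKM. The muscle actin genes Act79B and Act88F were at 0 and 0.422 FPKM and at 0 and 0.0755 FPKM. Act57B, a muscle actin gene, was at 133 and 27.0 FPKM and is taken up again with the muscle markers. Among tubulins, betaTub56D was at 1922 and 1648 FPKM and alphaTub84B at 1392 and 1316 FPKM. The maternal isoform gene alphaTub67C was at 764 and 528 FPKM. The female germline gamma-tubulin gene gammaTub37C was at 122 and 91.6 FPKM, above its relative gammaTub23C at 47.5 and 26.6 FPKM. The testis isoform gene betaTub85D was at 0.0859 and 0.163 FPKM.

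Heat shock genes ranged from over 1000 FPKM to under 1. Of 18 measured, 13 were at 1 FPKM or more in both libraries, against 45.2% of all genes, and 2 were under 1 in both. Hsp26 and Hsp27, small heat shock protein genes known for nurse cell expression without stress, were at 2533 and 1403 FPKM and at 847 and 639 FPKM. Hsp83, the Hsp90 gene, was at 1994 and 1656 FPKM. Hsp23 and Hsp22 were at 17.9 and 5.28 FPKM and at 18.9 and 4.09 FPKM, so Hsp26 exceeded Hsp23 142-fold and 266-fold. The stress-induced Hsp70 copies were low. Hsp70Aa was at 22.5 and 6.11 FPKM, and Hsp70Ba, Hsp70Bb and Hsp70Bc were between 0.570 and 1.24 FPKM in all values. These copies are near-identical and their split is uncertain.

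Germ plasm genes, which specify the germ cells of the next generation, were detected wherever they had a value. nos, which is also on the axis and early germline lists, had no value under the names tried. The 18 measured members of the list were at 1 FPKM or more in both libraries, where 45.2% of all genes were. The list median was 44.6 and 76.8 FPKM, at percentiles 76.1 and 89.5. osk, whose protein founds the germ plasm, was at 305 and 673 FPKM. exu and swa, which act in localising bicoid RNA, were at 504 and 331 FPKM and at 281 and 240 FPKM. bru1, a translational repressor of osk, was at 215 and 322 FPKM. vas, the germline RNA helicase gene, was at 70.9 and 74.8 FPKM, and aub, a Piwi protein gene, at 38.7 and 48.2 FPKM. tud, a scaffold of the germ plasm, was at 7.89 and 64.3 FPKM. It is one of 6 members at least 2-fold higher in wild type 2, with orb, stau, pum, spir and osk, while vls was at least 2-fold higher in wild type 1. Over all genes 9.93% were at least 2-fold higher in wild type 2 and 12.6% in wild type 1. The median length of the listed genes was 10354.5 bp, and of all genes over 8000 and up to 20000 bp 29.5% were at least 2-fold higher in wild type 2.

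Among maternal mRNAs that pattern the axes, 19 of 20 were at 1 FPKM or more in both libraries, against 45.2% of all genes. Their median was 27.3 and 36.2 FPKM. bcd, the anterior determinant, was at 68.8 and 70.0 FPKM and nearly equal in the libraries. cad, a posterior gene whose RNA is uniform in the egg, was at 85.7 and 116 FPKM, and hb, which also has zygotic transcripts, at 28.7 and 53.4 FPKM. grk, the oocyte signal to follicle cells, was at 7.92 and 13.2 FPKM, and osk stood 38.5-fold and 50.8-fold above it. Of the dorsoventral pathway, the receptor gene Tl was at 54.2 and 91.8 FPKM and its ligand gene spz at 22.8 and 59.4 FPKM. The protease genes ea, snk and gd were at 60.9 and 25.4 FPKM, 14.4 and 8.94 FPKM, and 7.16 and 5.88 FPKM. The inhibitor gene cact was at 101 and 147 FPKM and the transcription factor gene dl at 27.5 and 35.4 FPKM. pip, a sulfotransferase made by ventral follicle cells, was at 0.275 and 1.16 FPKM. pip and tsl, both made by follicle cells, were the lowest members of the list in both libraries, while ndl, also made by follicle cells, lay above snk, grk and gd in wild type 2.

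Genes of the early germline showed a wide span, from dhd down to near 0. Of 16 measured members, 14 were at 1 FPKM or more in both libraries, against 45.2% of all genes. zpg, the germline gap junction gene, was at 228 and 173 FPKM. otu and ovo, needed for female germline development, were at 117 and 207 FPKM and at 52.2 and 108 FPKM. The differentiation factor gene bam, which acts in the first germline divisions, was at 14.7 and 16.6 FPKM, and its partners tut and bgcn were at 5.45 and 1.27 FPKM and at 0.458 and 0.232 FPKM. mei-P26, another differentiation gene, was at 7.34 and 44.7 FPKM. bam and its partners act in a small part of the ovary, the germarium.

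Genes of the maternal cell cycle and of translation control were high as a group. All 20 measured members were at 10 FPKM or more in both libraries and 12 at 100 or more. Of all 16452 genes, 5605 and 659 were so. The list median was 140 and 149 FPKM. CycB, the mitotic cyclin stored in the egg, was at 1356 and 1473 FPKM. The translational repressor genes me31B and tral were at 560 and 1354 FPKM and at 556 and 1289 FPKM, both at least 2-fold higher in wild type 2. smg, a repressor that acts in the early embryo, was at 232 and 522 FPKM. The egg activation kinase subunit genes gnu, png and plu were at 580 and 335 FPKM, 146 and 80.2 FPKM, and 135 and 82.8 FPKM. All 3 genes were higher in wild type 1. stg and twe, the phosphatase genes that start mitosis and meiosis, were at 128 and 175 FPKM and at 67.5 and 94.1 FPKM.

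Most piRNA pathway genes were detected, over a wide range of levels. Of the 25 measured processing and ping-pong factors, 24 were at 1 FPKM or more in both libraries, against 45.2% of all genes. None was at 100 or more in both, and the median was 38.9 and 38.3 FPKM. piwi, the nuclear Piwi protein gene, was at 41.3 and 63.3 FPKM. AGO3, the ping-pong partner of aub, was at 6.23 and 61.2 FPKM, which is the widest gap of the list. squ and mael were at 97.4 and 85.2 FPKM and at 74.4 and 68.8 FPKM. The nuclease gene zuc was at 38.9 and 27.5 FPKM and the helicase gene armi at 47.4 and 68.8 FPKM. fs(1)Yb, which acts in follicle cells, was the lowest member, at 1.36 and 0.773 FPKM.

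All 14 nuclear silencing genes were at 1 FPKM or more in both libraries, against 45.2% of all genes. Their median was 51.2 and 50.8 FPKM. HDAC1, a histone deacetylase gene, was at 126 and 123 FPKM and ctp, a dynein light chain gene, at 75.6 and 163 FPKM. arx, Panx and nxf2, which act with Piwi on nascent transcripts, were at 66.2 and 38.2 FPKM, 30.6 and 28.6 FPKM, and 28.5 and 25.0 FPKM. egg, a histone methyltransferase gene, was at 29.0 and 27.4 FPKM.

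Of the 15 genes for cluster transcription and export, 14 were at 1 FPKM or more in both libraries, against 45.2% of all genes. Boot, the gene mutated elsewhere in the series, which acts in export of cluster transcripts, was at 88.6 and 89.7 FPKM. Its partner gene Nxf3 was at 22.7 and 39.8 FPKM. rhi, del and cuff, which license cluster transcription, were at 25.7 and 21.6 FPKM, 32.8 and 78.9 FPKM, and 3.42 and 4.04 FPKM. The transcription factor gene moon was at 83.9 and 41.8 FPKM. TfIIA-S-2, a TFIIA subunit paralog gene, was at 0.342 and 0 FPKM. Within the complex of rhi, del and cuff, cuff was the lowest in both libraries.

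Meiotic genes were mostly low. Of 22 members, 18 were at 1 FPKM or more in both libraries, against 45.2% of all genes. The median was 6.95 and 9.16 FPKM. The highest was mtrm, which restrains Polo kinase in the oocyte, at 502 and 647 FPKM. The synaptonemal complex gene c(3)G was at 3.33 and 17.1 FPKM and the double-strand break gene mei-W68 at 2.75 and 5.47 FPKM. The cohesion genes ord and sunn were at 0.226 and 0.0615 FPKM and at 0.0521 and 0.119 FPKM, at or below the level that 3 reads in 1 kb would give. Synapsis takes place in few, early cells of the ovary.

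Of 15 sex determination genes 12 were at 1 FPKM or more in both libraries, against 45.2% of all genes. Sxl, the switch gene, was at 23.4 and 61.4 FPKM, tra at 15.4 and 12.1 FPKM and tra2 at 23.9 and 15.9 FPKM. dsx was at 0.645 and 0.643 FPKM. The male dosage compensation gene msl-2 was at 1.47 and 1.72 FPKM, and the male noncoding RNA roX1 was at 0 and 0.0728 FPKM, with roX2 listed at 0. Summed transcripts do not separate the sex-specific splice forms.

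Follicle cell fate genes were mostly low. Of 35 measured members, 23 were at 1 FPKM or more in both libraries, where 45.2% of all genes were, 3 were so in a single library, and 9 were under 1 in both, among them wg, listed at 0. The median was 3.56 and 5.11 FPKM, at percentiles 38.0 and 40.4. tj, the transcription factor gene that marks somatic gonad cells, was at 14.5 and 29.4 FPKM. Fas3 and eya, both used as markers of follicle cells, were at 7.47 and 10.3 FPKM and at 6.95 and 5.11 FPKM. slbo, which marks the migrating border cells, was at 0.245 and 1.09 FPKM. The receptor genes Egfr and N were at 4.82 and 4.67 FPKM and at 4.98 and 7.99 FPKM. The ligand genes dpp and upd1 were at 0.690 and 0.745 FPKM and at 0.486 and 0.327 FPKM. The highest members by mean were bun, usp and dome, broadly expressed regulators, at 58.4 and 154 FPKM, 79.3 and 96.6 FPKM, and 44.0 and 57.8 FPKM. Every one of these regulators lay below the median of the chorion list in both libraries.

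Ecdysteroid synthesis genes, which follicle cells also use, were near the lower limit. The median of 7 measured genes was 1.12 and 1.22 FPKM. sro was at 9.60 and 3.81 FPKM, spo at 3.11 and 3.999 FPKM and sad at 2.50 and 1.77 FPKM. spok, the larval counterpart of spo, was at 0 and 0.0341 FPKM.

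Markers of other tissues separated the sample from most of them. All 9 measured Y chromosome genes were listed at 0 in both libraries, as were 16 of 22 testis markers. Of all genes 32.6% were so. The testis markers at 1 FPKM or more in both libraries were twe, which also acts in the oocyte, and mia, at 1.58 and 2.05 FPKM. Neuron and eye markers were under 1 FPKM in 17 of 18 cases, norpA being the exception at 6.42 and 16.03 FPKM, with elav at 0.131 and 0.542 FPKM. All 11 gut enzyme markers were under 1 FPKM. Of 7 fat body markers 6 were under 1 in both, and apolpp, the main lipophorin gene, was at 0.210 and 4.82 FPKM. For comparison, 8034 of all 16452 genes were at 1 FPKM or more in either library.

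Muscle RNA was present. Of 20 muscle markers 16 were at 1 FPKM or more in both libraries, against 45.2% of all genes. The list had a median of 9.15 and 5.17 FPKM and sums of 0.0785% and 0.0789% of all FPKM. Of the 16, 9 were at least 2-fold higher in wild type 1 and 0 in wild type 2. Over all genes 12.6% and 9.93% were so. The median length of the listed genes was 8602.5 bp. Of all genes of 8001 to 20000 bp, 1.42% were at least 2-fold higher in wild type 1 and 29.5% in wild type 2. The muscle list thus leaned to wild type 1, unlike genes near its median length, and what produced this was not tested. Mlc2, a myosin light chain gene, was at 40.4 and 5.24 FPKM and Mhc, the myosin heavy chain gene, at 8.97 and 4.36 FPKM. Act57B and Mp20 were at 133 and 27.0 FPKM and at 77.3 and 16.9 FPKM. The highest mean levels were those of Tm1 and Chd64, which other cells also use, at 107 and 195 FPKM and at 84.3 and 119 FPKM.

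Of 18 hemocyte and basement membrane markers 10 were at 1 FPKM or more in both libraries. That share was near the 52.1% of all protein-coding genes at that level. The list held 0.0317% and 0.0456% of all FPKM. Hml, which defines hemocytes, was at 0.135 and 0.0307 FPKM, and He was listed at 0. The highest was crq, a scavenger receptor gene, at 76.7 and 104 FPKM. The basement membrane genes Col4a1, vkg and SPARC, also made by follicle cells, were at 41.8 and 26.6 FPKM, 28.7 and 18.8 FPKM, and 34.5 and 17.8 FPKM. Of the reproductive tract markers, Send1 and Send2, spermathecal protease genes, were listed at 0, and Oamb, an octopamine receptor gene, was at 5.73 and 8.59 FPKM.

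**Figure D4:**
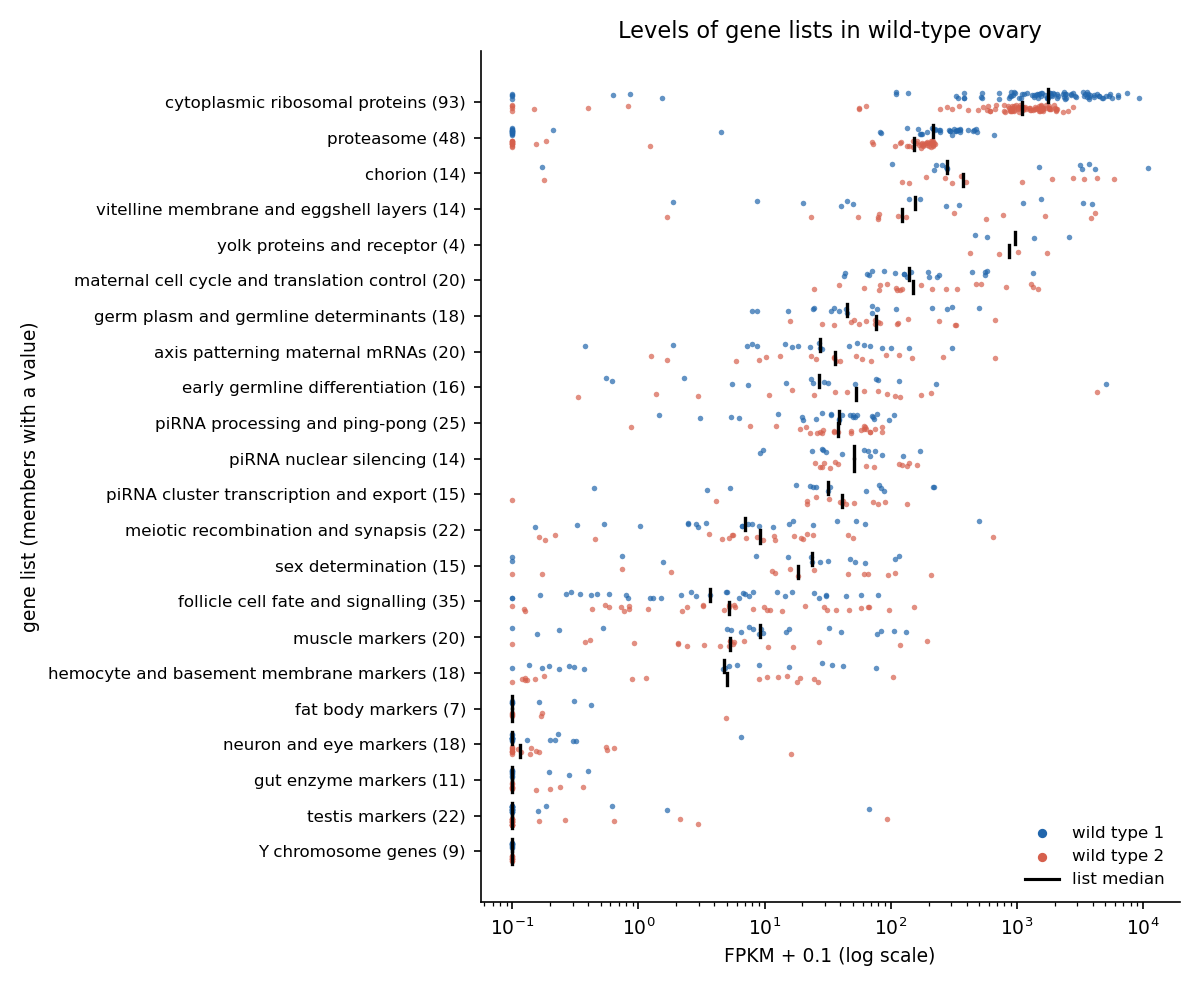
FPKM + 0.1 (log scale) of the members of 22 gene lists in wild type 1 (blue) and wild type 2 (red), with the list median as a black bar and the number of measured members in brackets. Ribosomal, yolk and chorion lists lie at the right, follicle cell regulators near the middle, and testis and Y chromosome medians at 0.

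Replication-dependent histone genes, whose messages lack a poly(A) tail, were low per copy. The 23 copies of His1 had a median of 4.49 and 2.71 FPKM, and the 23 copies of His3 one of 0.299 and 0.114 FPKM. The 20 copies of His2A were higher, with a median of 42.5 and 10.5 FPKM. Copies are near-identical, so the split between them is uncertain. BigH1, the germline linker histone gene, was at 633 and 370 FPKM, above every His1 copy in both libraries, and the histone H4 replacement gene His4r was at 1035 and 268 FPKM. Both were picked after their values were seen.

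Among noncoding RNAs the highest gene differed most between the libraries. lncRNA:CR34335 (X, 3545750 to 3546110), of 361 bp, was the highest of all genes in wild type 1, at 14499 FPKM, and ranked 1143 in wild type 2, at 77.6 FPKM. That is the largest difference between the libraries among genes with a mean of at least 20 FPKM. asRNA:CR45601 on X was at 345 and 401 FPKM and lncRNA:CR42491 at 137 and 256 FPKM. The latter contains snoRNA:Psi18S-531, at 127 and 22.2 FPKM, and where genes overlap or run antisense their reads cannot be told apart without strand. lncRNA:CR42862 was at 38.1 and 155 FPKM. Short noncoding genes again leaned to wild type 1: lncRNA:CR40469, of 214 bp, was at 171 and 7.03 FPKM, and snRNA:U12, of 238 bp, at 102 and 21.2 FPKM.

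Transposons held a very small part of the summed FPKM in wild-type ovaries. The 117 elements of the studied species summed to 91.6 and 186 FPKM, or 0.0126% and 0.0350% of all FPKM. How reads shared by several copies of an element were counted is not given in the sources used here. Transposon levels, here and below, are thus uncertain and may be too low. At 1 FPKM or more in both libraries were 17 elements, or 14.5%, against 45.2% of genes. A further 13 reached 1 FPKM in a single library, 80 stayed below 1 FPKM without being 0 in both, and 7 were listed at 0 in both. In wild type 1, 20 elements were listed at 0, against 8 in wild type 2. The median element was at 0.207 and 0.312 FPKM. Of all 117, 84 were higher in wild type 2 and 26 in wild type 1, and the lengths of the elements were not used here.

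The copia element, a long terminal repeat (LTR) retrotransposon, was the most abundant, at 15.4 and 71.5 FPKM. It held 16.8% of transposon FPKM in wild type 1 and 38.5% in wild type 2, and its level differed 4.65-fold. Without it the sums were 76.2 and 114 FPKM, which differ 1.502-fold in place of 2.03-fold. Its mean still lay below that of 2687 genes. No other element reached 20 FPKM in either library.

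Next came diver, an LTR element of the BEL/Pao group, at 6.96 and 17.3 FPKM, and pogo, a DNA transposon, at 7.61 and 8.43 FPKM. 3S18, also of the BEL/Pao group, was at 5.50 and 6.91 FPKM. Doc, a LINE element of the jockey clade, which moves by reverse transcription without LTRs, was at 2.21 and 6.23 FPKM, and Max-element at 2.92 and 4.91 FPKM. springer and 412, LTR elements of the gypsy group, were at 5.10 and 1.91 FPKM and at 3.28 and 1.41 FPKM. 1731, of the copia group, was at 6.57 and 4.95 FPKM. These 3 were higher in wild type 1. FB, the foldback element, was at 1.57 and 3.26 FPKM. Tc1 and rooA passed 1 FPKM in wild type 2 only, at 0.95 and 3.87 FPKM and at 0.893 and 3.65 FPKM.

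By class, 4 of 7 BEL/Pao elements and 2 of 4 copia-group elements were at 1 FPKM or more in both libraries. Dm88, at 0.104 and 0.172 FPKM, was on both the copia and the gypsy list and is counted in each. Of 49 gypsy-group LTR elements 2 reached that level, springer and 412, and 43 were under 1 FPKM in both. Of 32 LINE elements outside the telomere group 3 reached it, which were Doc, Juan and the I-element. Of 24 DNA and other elements 6 reached it.

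The list of elements known for germline activity had a median of 0.858 and 1.70 FPKM. That was above the median of all elements, at 0.207 and 0.312 FPKM. copia, diver, Doc and Max-element, given above, are among its members. Of 13 measured, 6 were at 1 FPKM or more in both libraries, against 14.5% of all elements. Listed at 0 in both were 0 of the 13, against 7 of all 117 elements, so 0 was rare in either set. HeT-A, the only listed telomere retrotransposon with a value, was at 0.858 and 1.30 FPKM. The I-element was at 1.24 and 1.75 FPKM, roo at 1.17 and 2.65 FPKM and jockey at 0.441 and 1.07 FPKM. Burdock and blood, LTR elements, were at 0.271 and 0.742 FPKM and at 0.534 and 0.528 FPKM. Transpac was at 0.151 and 1.70 FPKM, the largest ratio between the libraries among the 30 elements that reached 1 FPKM in one of them. On the log2(FPKM + 1) scale its difference was 1.23, below that of copia at 2.15, Tc1 at 1.32 and rooA at 1.30.

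The elements known for activity in follicle cells were near the level of all elements. Of 13 measured, 2 were at 1 FPKM or more in both libraries, against 14.5% of all elements, and 10 were under 1 FPKM in both, with a median of 0.165 and 0.309 FPKM, against 0.207 and 0.312 FPKM over all elements. gypsy, an infectious LTR element, was at 0.233 and 0.218 FPKM. ZAM was at 0.188 and 0.285 FPKM, Idefix at 0.0427 and 0.374 FPKM, and gtwin at 0.0427 and 0.309 FPKM. Tabor was at 0 and 0.131 FPKM. The medians of the germline list were 0.858 and 1.70 FPKM, and the difference between the lists was not tested.

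Listed at 0 in both libraries were P-element, NOF, Helitron, R2-element, Q-element, G7 and invader5. Oregon-R is known as a strain without P-elements. Without the lengths of the elements the highest level that a count of 0 allows was not computed for them.

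Rows of elements from other species were read as well. Whether reads in them came from related elements of the studied species was not tested, and they do not give a noise level. The file holds 56 such rows under 51 names, 52 rows with a species prefix and 4 known from other species by name. Of the 51 names, 46 were listed at 0 in both libraries and 0 were at 1 FPKM or more in both. The highest were mini-me of D. pseudoobscura, at 0.513 and 1.37 FPKM, and TART of D. yakuba, at 0.468 and 1.05 FPKM. Next were ninja of D. simulans, at 0.429 and 0.371 FPKM, and Osvaldo, at 0.410 and 0.312 FPKM. No row of the studied species bore the names TART, mini-me or ninja. So 0 in both was the rule for foreign elements and rare for those of the studied species, 7 of 117, while mini-me, TART and ninja exceeded the median element of the studied species in both libraries and Osvaldo was about level with it in wild type 2.

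**Figure D5:**
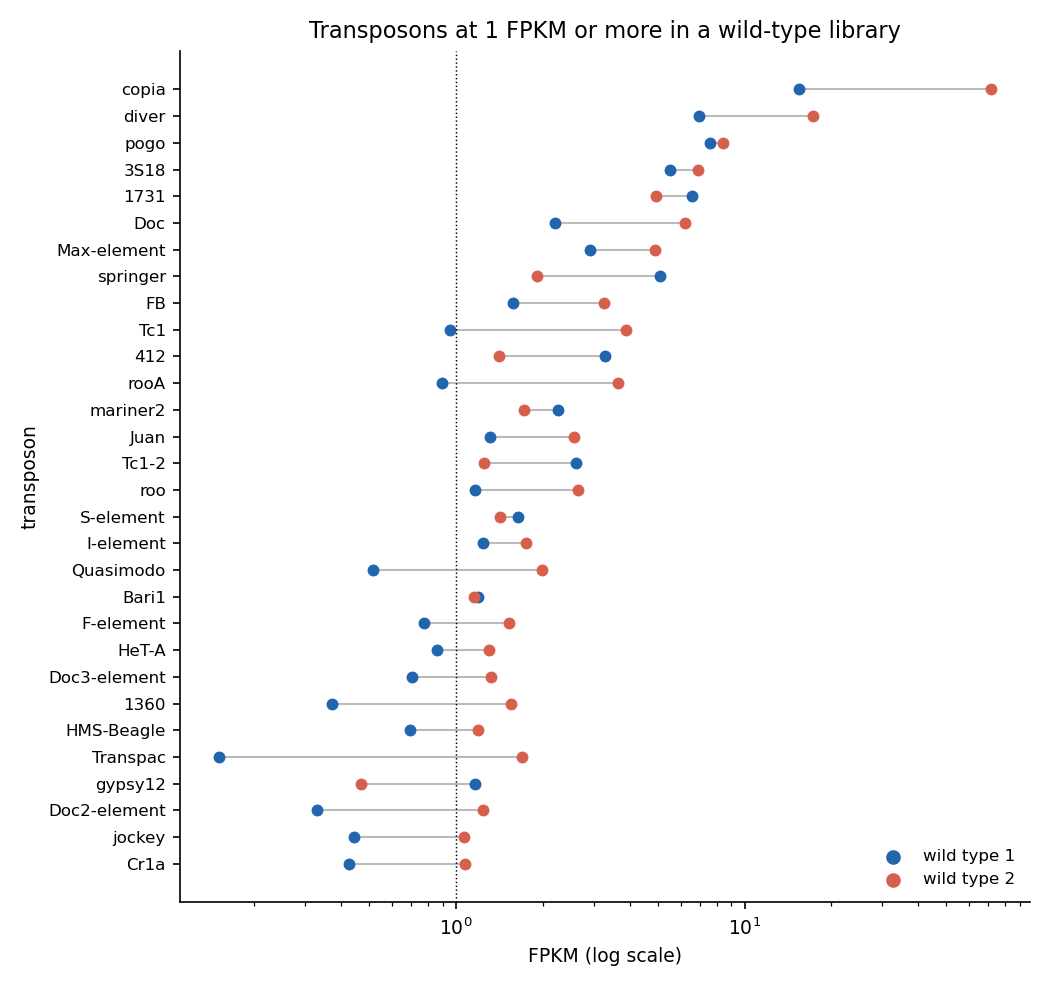
FPKM (log scale) of the 30 transposons at 1 FPKM or more in either library, with wild type 1 in blue, wild type 2 in red and a dotted line at 1 FPKM. Copia is the highest at 15.4 and 71.5 FPKM, 17 elements have both points right of the line, and Transpac has the largest ratio between the libraries.

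Single genes far apart between the libraries mark where a wild-type level rests on 1 library. Among genes with a mean of at least 20 FPKM, the largest gaps toward wild type 1 after lncRNA:CR34335 were in CG14245, at 42.4 and 0.404 FPKM, and lncRNA:CR40469. Mur18B, a mucin-related gene, was at 118 and 4.62 FPKM and CG14292 at 92.1 and 3.72 FPKM. CG34200 was at 435 and 28.7 FPKM, CG15922 at 50.2 and 3.56 FPKM, and Tom7, of the mitochondrial import pore, at 438 and 48.6 FPKM. These 8 genes span from 214 to 1685 bp.

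The largest gaps toward wild type 2 were in long genes. Unr, an RNA-binding protein gene, was at 1.96 and 54.8 FPKM and Nipped-B, the cohesin loader gene, at 1.34 and 42.0 FPKM. PlexA, a semaphorin receptor gene on chromosome 4, was at 4.92 and 85.9 FPKM. l(3)80Fj was at 4.06 and 58.2 FPKM and Parp1, which encodes a poly(ADP-ribose) polymerase, at 3.36 and 49.4 FPKM. Mnt, a Myc antagonist gene, was at 6.11 and 76.4 FPKM, aqz at 23.5 and 254 FPKM and CG42232 at 2.98 and 38.6 FPKM. These 8 genes span from 7193 to 125704 bp, and no test was possible with a single library on each side.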

How the data were processed

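Total RNA of wild-type ovaries was measured in 2 libraries. The authors deposited 1 table of FPKM values per transcript and transposon with 1 added to each value (the lowest deposited value is 1), per the file headers and the values. The submitters' processing notes name Bowtie2 2.2.4 and the build dm6, without saying for which step. Not given in the sources used here were the counting program, whether it used strand, and how it treated multi-mapped reads.

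From there, 1 was subtracted and transcripts were summed per gene, with names and coordinates from the RefSeq gene table of Release 6 (dm6). Of 35327 transcript rows 32988 matched a gene and 2339 were left out. Reads shared by isoforms may be counted more than once in such sums. Detected means at least 1 FPKM in both libraries, and fold differences used log2(FPKM + 1). The scripts (Python 3.11.15, pandas 2.3.3, scipy 1.17.1) were tested on simulated data.

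Members and gene lists were chosen with earlier results of these data known. Named were list members, the 30 highest protein-coding and 10 highest noncoding genes by mean, the 12 highest transposons, and the 8 genes most apart in each direction with a mean of at least 20 FPKM. Sequences were not used here. Alternatives were other detection limits, scalings, pseudocounts, filters, the highest transcript per gene, and each library alone.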

Additional observations from a re-analysis of the deposited data

How the results depend on the processing

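The number of transposons detected, 17, depended on the limit and the library. It was 27 at 0.5 FPKM, 4 at 5 FPKM and 30 when 1 FPKM in either library was enough. With a single library it ranged from 18 without wild type 2 to 29 without wild type 1. Genes detected moved little, from 7438 to between 6363 and 8034 over the same limits and 7111 by the highest transcript. Lists with a median percentile of at least 75 numbered 11 by the mean of both libraries. They numbered 7 when ranked only among genes detected in both, and 10 to 12 with a single library. Genes at least 2-fold apart numbered 1813, of which 44.0% were higher in wild type 2. Scaled to the same FPKM sum they numbered 2057, with 79.4% higher in wild type 2, and centred on the median gene 1757, with 58.9%. The causes were not tested. A pair of alternatives was chosen after seeing the data, and left the counts at 11 lists (members over 1000 and up to 4000 bp only) and 17 transposons (the higher row of a name with 2 rows). The 30 highest genes held 15.2% to 22.4% of summed FPKM with a single library. No paired analysis was possible because a single group was described and no groups were compared.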

Other observations

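Detection of protein-coding genes varied little between the large chromosome arms and was higher on X and chromosome 4. On X, 1261 of 2162 protein-coding genes (58.3%) were at 1 FPKM or more in both libraries. On 2L, 2R, 3L and 3R the shares were 50.4%, 52.0%, 50.3% and 51.0%. On chromosome 4, 46 of 78 genes (59.0%) were detected in both, with 60.3% detected in wild type 1 and 70.5% in wild type 2. The median level of its detected genes was 8.15 FPKM in wild type 1 and 29.97 FPKM in wild type 2, while on X it was 30.9 and 31.4 FPKM. All 37 genes on Y were listed at 0. These shares were looked at after the data were seen, and the differences were not tested.

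pgc, which keeps transcription silent in the primordial germ cells and was picked after its values were seen, was at 597 and 430 FPKM.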
